A study of Homo sapiens with 42 samples.

Results

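The loci of 8 pigmentation genes were examined in ATAC-seq peak lists: PMEL, TYR, TYRP1, DCT, MLANA, SLC45A2, OCA2 and TRPM1. They are 8 of the 19974 protein-coding genes of the RefSeq table of GRCh38.p14 that lie on chromosomes 1 to 22 and X. A peak belonged to a locus when its summit, the position of highest pileup, lay inside the gene or within 50 kb of it. The genes were chosen by name and not by a measured value, though earlier results of these data were known. ATAC-seq marks open chromatin by cutting it with a transposase, and 42 samples of 7 human tumour lines were profiled. Those of the pigment cell lineage were 92-1, from uveal melanoma, and A375, from melanoma. The others were MV411 from acute myeloid leukaemia, HCT116 from colorectal adenocarcinoma, DU4475 from invasive breast carcinoma, RD from rhabdomyosarcoma and 22RV1 from prostate adenocarcinoma, and all are labelled wild type in genotype. Each line was exposed for 4 h to FHT-1015, which inhibits both ATPases of the BAF remodelling complexes (SMARCA4 and SMARCA2), or to DMSO as negative control, with 3 biological replicates in each of the 14 groups. FHT-1015 was compared with DMSO in 92-1 and A375, with the 5 other lines as reference. In such cultures, fewer cells with an open site and a less open site in each cell cannot be told apart.

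Melanin is made in melanosomes, organelles of melanocytes. TYR encodes tyrosinase, the rate-limiting enzyme of melanin synthesis, and TYRP1 and DCT encode related melanosomal enzymes. PMEL forms the fibrils on which melanin is deposited, and MLANA is a melanosomal membrane protein that interacts with PMEL. SLC45A2 and OCA2 are membrane transport proteins that influence melanosomal pH, and TRPM1 is a cation channel of melanocytes and retinal bipolar cells. MITF, a helix-loop-helix transcription factor, is the known activator of many of these genes and binds E-boxes such as TCATGTG.

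The promoter sequences of TYR, TYRP1, both starts of DCT and the internal start of TRPM1 are shown with their E-boxes. They are a selection that includes all 3 with TCATGTG. Those of MLANA, OCA2 and the outer start of TRPM1 were searched too and are not shown. RefSeq sequence (GRCh38.p14) was matched for 8 starts of 6 of the 8 genes by symbol, DCT and TRPM1 having 2 starts each. PMEL and SLC45A2 were not among these. Each line gives the 250 bases before the start, 5′ to 3′ on the gene's strand, with capitals at the E-box CATGTG on either strand, or at the longer TCATGTG where it is present.
TYR, chr11:89177625-89177874, plus strand: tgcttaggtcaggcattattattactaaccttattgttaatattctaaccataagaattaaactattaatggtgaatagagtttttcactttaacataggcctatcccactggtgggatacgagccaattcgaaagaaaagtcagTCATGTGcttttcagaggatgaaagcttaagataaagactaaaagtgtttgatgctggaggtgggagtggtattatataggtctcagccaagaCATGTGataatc
TYRP1, chr9:12693135-12693384, plus strand: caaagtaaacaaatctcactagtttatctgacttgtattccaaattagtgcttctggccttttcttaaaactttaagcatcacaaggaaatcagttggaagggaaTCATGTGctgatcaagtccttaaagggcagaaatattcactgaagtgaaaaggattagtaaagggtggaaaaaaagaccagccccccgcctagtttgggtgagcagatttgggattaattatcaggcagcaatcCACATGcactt
DCT internal start, chr13:94479683-94479932, minus strand: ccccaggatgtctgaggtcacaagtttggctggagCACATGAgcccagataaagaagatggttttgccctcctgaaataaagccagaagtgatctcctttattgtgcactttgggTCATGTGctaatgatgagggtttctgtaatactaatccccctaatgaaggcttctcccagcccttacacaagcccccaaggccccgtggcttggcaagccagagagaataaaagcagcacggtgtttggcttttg
DCT outer start, chr13:94549407-94549656, minus strand: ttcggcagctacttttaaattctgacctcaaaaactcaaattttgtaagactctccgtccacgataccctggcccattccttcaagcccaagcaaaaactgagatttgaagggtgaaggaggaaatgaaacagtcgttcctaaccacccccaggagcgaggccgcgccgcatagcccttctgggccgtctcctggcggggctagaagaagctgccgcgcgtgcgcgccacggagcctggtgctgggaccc
TRPM1 internal start, chr15:31101726-31101975, minus strand: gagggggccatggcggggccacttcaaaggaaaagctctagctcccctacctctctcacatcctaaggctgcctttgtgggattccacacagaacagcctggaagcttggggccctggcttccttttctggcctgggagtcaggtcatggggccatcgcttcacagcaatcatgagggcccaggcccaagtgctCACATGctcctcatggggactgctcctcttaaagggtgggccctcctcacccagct
TCATGTG was found in 3 of the 8 windows, searched on both strands. It began 105 bases before the start of TYR, 145 bases before that of TYRP1 and 135 bases before the internal start of DCT, where its complement also began 215 bases before the start. Over all 22132 protein-coding starts in the table, 1.99% of windows of this length held it. The shorter CATGTG, which TCATGTG contains, was present in 6 of the 8 windows, against 7.6% of all windows. The outer DCT window held neither. ACAAAG was present in the windows of OCA2 and the internal TRPM1 start, against 11.6% of all windows. TCACGTG was in 0 of the 8 windows, against 3.99% of all. The same held for the shorter CACGTG that it contains (7.37% of all), for ACAATG (6.91%) and for TGACTCA (3.45%). A match describes the letters and is not a binding site.

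Samples differed in depth, which sets how many peaks a list can hold. The deposited lists held 114291 to 431956 peaks on the chromosomes used and 1412 to 121774 strict peaks, a name used here where −log10 q reached 5. Numbers were therefore taken from the 50000 peaks of highest −log10 p of each list, so that every list was equally long. The lists give no read counts, and the background pileup recovered from the deposited fold and p, a stand-in for relative depth, ran from 0.0341 to 2.79. FHT-1015 replicates 2 and 3 of 92-1 stood apart: their background of 0.0346 and 0.0341 was the lowest of the series, they held 2037 and 1412 strict peaks, and 10.4% and 8.55% of their 50000 strongest peaks lay within 1 kb of a gene end, against 18.6% to 25.0% in the other 4 samples of the line. FHT-1015 replicate 1 of 92-1, with a background of 0.299 and 20254 strict peaks, lay within the range of the DMSO samples, 0.0839 to 0.43 and 14266 to 66350. Results in 92-1 are given with and without this shallow pair. Without it the FHT-1015 arm is 1 sample, which is assumed to vary like the other groups. In A375 the background was 0.606 to 0.901 in DMSO and 0.707 to 1.35 in FHT-1015 samples. Of 6 melanocyte markers, 1 had a peak within 1 kb of a gene end in all 3 DMSO samples of 92-1, 3 did in A375 and 1 to 3 did in each other line, so this check did not set the melanoma lines apart. The defining marker SOX10 had one in 1 of 3 samples of 92-1 and 0 of 3 in A375 and in each of the other lines. PAX3, which RD also opened, had one in all 3 samples of both melanoma lines. Of the 5 markers each for prostate, muscle, myeloid, intestinal and epithelial cells, 0 or 1 had one in all 3 DMSO samples of 92-1 and of A375.

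At the gene starts, 92-1 called 6 of the 8 windows in at least 1 sample and A375 called 0. A start was counted as called when a peak among the 50000 strongest overlapped its RefSeq window of 300 bases by at least 100 bases. The internal start of DCT was called in 3 of 3 DMSO samples of 92-1 and in 0 samples of every other group. Its peaks had ranks 27300, 11972 and 5446 by −log10 p in DMSO replicates 1 to 3, rank 1 being the strongest. No peak of any strength overlapped this window in the 3 FHT-1015 samples of 92-1. The groups of this line did not overlap, and 4.5% of the starts called in all 3 of its DMSO samples (224 of 4976) were called in 0 of its FHT-1015 samples. Among 500 bp regions called in all 3 DMSO samples of 92-1 and in no DMSO sample of the 5 other lines, as here, 66.6% were lost likewise. The deeper FHT-1015 replicate 1 called 41.7% of all starts, against 41.4%, 33.6% and 30.4% in the DMSO samples, and it lacked the peak too.

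The outer start of DCT showed the reverse distribution. It was called in all 30 samples of the 5 other lines, at ranks of 334 to 15192 in the 15 DMSO samples and 1117 to 13177 in the 15 FHT-1015 samples, and in 0 samples of 92-1 and A375. FHT-1015 left these calls in place in 15 of 15 samples. A375 called neither DCT start.

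The internal start of TRPM1 was called in 3 of 3 DMSO samples of 92-1, at ranks 43039, 17730 and 45862, and in FHT-1015 replicate 1 at rank 16573. The calls in the 2 arms thus overlapped, and the 2 FHT-1015 samples without a call were the shallow ones. One FHT-1015 sample of DU4475 also called it. The outer TRPM1 start was called in 0 of 42 samples. The TYRP1 start was called in DMSO replicates 1 and 2 of 92-1 (ranks 25185 and 13770), in FHT-1015 replicate 1 (rank 9760), and in 0 samples of the 6 other lines. The TYR start was called in DMSO replicate 1 (rank 16188) and FHT-1015 replicate 3 (rank 21603) of 92-1 and nowhere else, the latter peak resting on a pileup of 2 reads. The MLANA start was called in DMSO replicate 1 of 92-1 alone (rank 49763). None of these starts separated the arms of 92-1. The OCA2 start followed no melanoma pattern, with calls in 5 of 6 samples of 22RV1, 2 of 6 of 92-1 and of RD, 1 of 6 of HCT116 and 0 of A375, DU4475 and MV411. A375 called 0 of the 8 starts in either arm, while its DMSO samples called 49.5%, 50.7% and 48.7% of all protein-coding starts.

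**Figure D1:**
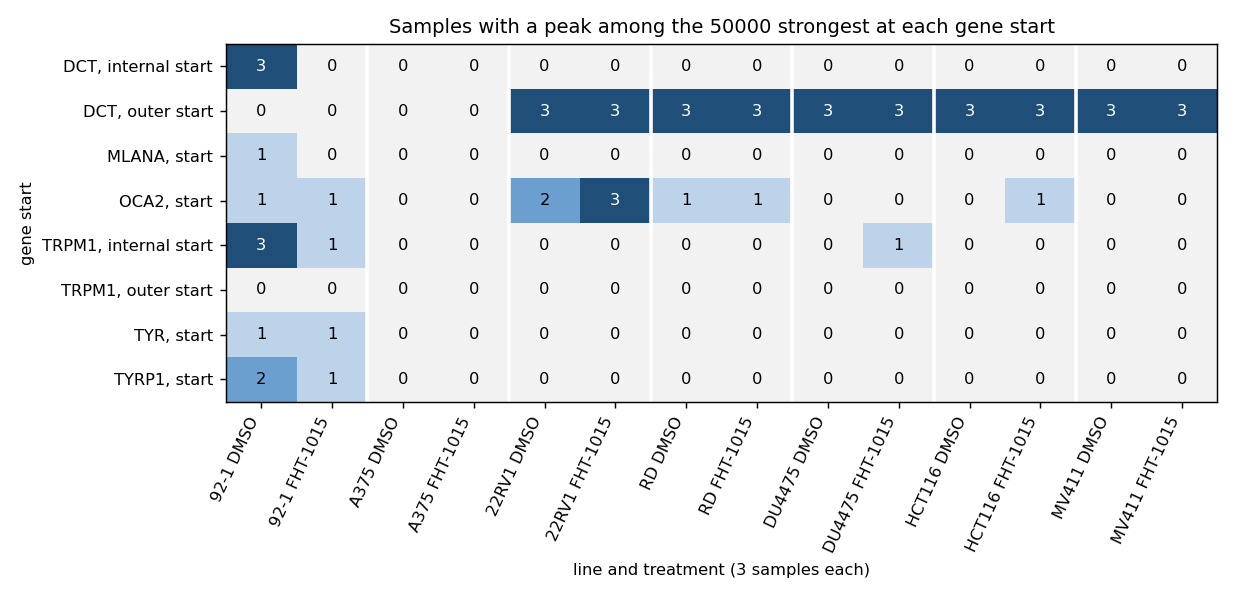
Number of samples, of 3 in each group, with a peak among the 50000 strongest at each RefSeq start (rows) in each line and treatment (columns). The internal DCT start is at 3 in 92-1 with DMSO and 0 elsewhere, while the outer DCT start is at 3 in every group of the 5 lines that are not melanoma.

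TYR, on chromosome 11 (89177875 to 89295759), was the member with the largest difference in DMSO between each melanoma line and the mean of the 5 other lines. Peak numbers in DMSO replicates 1 to 3 were 6, 3 and 4 in 92-1 and 3, 4 and 3 in A375. They were 3, 2 and 2 in 22RV1, 2, 0 and 0 in HCT116, and 0 in all samples of RD, DU4475 and MV411. Both melanoma lines stood above RD, DU4475, MV411 and HCT116 without overlap, and the neighbours 92-1, A375 and 22RV1 shared a value of 3. Strict peaks in DMSO samples numbered 3, 4 and 3 in 22RV1, as in A375, and 6, 2 and 1 in 92-1. In the limma fit across all genes, with Benjamini-Hochberg adjustment, the log2 difference in DMSO from the mean of the 5 other lines was 1.93 (SE 0.32, adjusted p = 6.516e-06) for 92-1 and 1.66 (SE 0.32, adjusted p = 0.0001835) for A375. Of all 18478 genes tested, 6.85% were called higher in 92-1 and 13.3% in A375.

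At TYR the melanoma lines shared open regions that no other line called. Regions are windows of 500 bp around summits, and a sample calls one when a peak among its 50000 strongest overlaps it by at least 100 bp. Of 469307 regions, 7670 were called in all 6 DMSO samples of the 2 melanoma lines, and 10.5% of these (807) in 0 of the 15 DMSO samples of the other lines. In the 8 loci the same held for 2 of 6 regions, and both lie at TYR. One is 9.33 kb below the gene (chr11:89168299-89168798) and was named by rule, and 1 DMSO sample of RD listed a peak there outside its 50000 strongest. The other is 13.8 kb above its end (chr11:89309345-89309844) and was singled out after its values were seen.

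The region 9.33 kb below TYR was lost in 92-1, as were 450 of the 807 regions shared only by the melanoma lines in DMSO (55.8%). Its peaks had ranks 10102, 16875 and 16442 in DMSO replicates 1 to 3, with pileups of 29, 7 and 4 reads. No peak of any strength overlapped it in the 3 FHT-1015 samples, so the groups did not overlap, and the deeper replicate 1 lacked it as well. In A375 all 6 samples called it, at ranks 2948, 1777 and 6918 with DMSO and 21719, 33688 and 39223 with FHT-1015. All FHT-1015 ranks in A375 came after all DMSO ranks, which is a description of lists of unequal length and was not tested. The region 13.8 kb above TYR was called in all 12 melanoma samples. Its ranks in 92-1 were 452, 1500 and 674 with DMSO and 9857, 9579 and 3939 with FHT-1015, and in A375 they were 36755, 17141 and 5366 with DMSO and 49735, 23315 and 13962 with FHT-1015. The 2 arms had separate ranks in 92-1 and overlapping ranks in A375.

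Peak numbers over the whole TYR locus did not change by the test. In 92-1 they were 1, 6 and 7 with FHT-1015, overlapping the 6, 3 and 4 with DMSO, for a log2 difference of -0.11 (SE 0.41, adjusted p = 0.8527). The deeper replicate held the 1 peak, and without the shallow pair the difference was -1.38 (adjusted p = 0.07787). Strict peaks numbered 6, 2 and 1 with DMSO and 1, 0 and 0 with FHT-1015. In A375 the numbers with FHT-1015 were 2, 2 and 3, for a log2 difference of -0.38 (SE 0.41, adjusted p = 0.6637).

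TYRP1, on chromosome 9 (12693385 to 12710285), had fewer peaks with FHT-1015 in A375. The 3 DMSO samples held 2, 2 and 5 peaks and the 3 FHT-1015 samples 0, 0 and 1, without overlap. The log2 difference was -1.59 (SE 0.42, limma adjusted p = 0.025), and TYRP1 was the 1 member of 8 called in A375, all genes being called lower at 0.828% and higher at 2.92%. The call was lost without DMSO replicate 1 (adjusted p = 0.05066), DMSO replicate 3 (0.1562), FHT-1015 replicate 1 (0.09824) or FHT-1015 replicate 2 (0.1332), each with the difference still below 0, and with windows of 100 kb the difference was 0.01. It was also lost with the 100000 strongest (0.5908), strict (0.6207) or deposited peaks (1), with ranking by fold (0.339) and with windows of 10 kb (0.1088). The call was kept in 15 of 26 alternatives, which include those without samples of 92-1, where only the shared spread can change. Over all alternatives its adjusted p ran from 0.002203 to 1. In 92-1 the numbers were 3, 2 and 4 with DMSO and 6, 0 and 1 with FHT-1015, for a difference of -0.70 (SE 0.42, adjusted p = 0.1826), which was 0.84 without the shallow pair.

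The peaks lost at TYRP1 in A375 were 2 regions called in all 3 DMSO samples and 0 FHT-1015 samples. One lies inside the gene, 10.8 kb from its start (chr9:12703907-12704406), with ranks 32664, 42504 and 42529 in DMSO samples, and 1 FHT-1015 sample still listed a peak there outside its 50000 strongest. The other lies 38.0 kb above the gene end (chr9:12748035-12748534), with ranks 14969, 28205 and 15783 and pileups of 20, 15 and 11. In the 3 FHT-1015 samples this second region still had peaks in the deposited lists, at ranks 102308, 118124 and 55166 with pileups of 6, 7 and 6, so it dropped below the 50000 and did not vanish. The region 18.1 kb below TYRP1 (chr9:12675039-12675538) had calls in 92-1 and none in A375: all 3 DMSO samples called it (ranks 16579, 9481 and 7003), as did FHT-1015 replicates 1 and 3 (10158 and 5067), and no deposited peak of A375 overlapped it. In DMSO, TYRP1 held more peaks than the mean of the 5 other lines in 92-1 (log2 difference 0.98, SE 0.33, adjusted p = 0.01486) and in A375 (0.93, SE 0.33, adjusted p = 0.03229). Single lines did not follow that mean, since MV411 held 3, 4 and 3 peaks and HCT116 5, 1 and 3, while RD and DU4475 held 0 in every sample.

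At DCT, on chromosome 13 (94436811 to 94549406), the arms of 92-1 overlapped in the number of peaks over the whole locus. The samples of 92-1 held 7, 6 and 6 peaks with DMSO and 3, 10 and 6 with FHT-1015 (log2 difference -0.12, SE 0.26, adjusted p = 0.7397). The deeper replicate held 3, and without the shallow pair the difference was -0.87 (adjusted p = 0.05336). A375 held 5, 5 and 4 with DMSO and 3, 2 and 4 with FHT-1015, which share a value of 4 (-0.53, SE 0.26, adjusted p = 0.2517). In RD the numbers were 5, 5 and 5 with DMSO and 4, 4 and 4 with FHT-1015, without overlap (-0.26, adjusted p = 0.7989). They were 7, 7 and 8 against 6, 6 and 6 in DU4475, also without overlap (-0.25). In MV411 they were 6, 8 and 6 against 4, 5 and 5, again without overlap (-0.43, adjusted p = 0.367). Limma called none of these differences, and the share of all genes without overlap was not counted. The arms overlapped in 22RV1 and HCT116. One region, 37.2 kb above the gene and 9.7 kb from the nearest end of TGDS (chr13:94586321-94586820), was lost in A375, where its DMSO ranks were 18227, 29572 and 12187. FHT-1015 replicate 2 of A375 still listed a peak there at rank 62689. In 92-1, DMSO replicates 1 and 3 called the same region and no FHT-1015 sample listed it. The region of the locus that most melanoma samples called lay at the end of TGDS, a neighbouring gene, and all 5 other lines called it in every sample.

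MLANA, on chromosome 9 (5890889 to 5910606), held fewer peaks with FHT-1015 in 92-1. The DMSO samples held 8, 3 and 3 peaks and the FHT-1015 samples 2, 0 and 1, without overlap. The log2 difference was -1.53 (SE 0.35, limma adjusted p = 0.001032), and it differed from the mean difference of the 5 other lines by -1.21 (SE 0.39, adjusted p = 0.0175). Without the shallow pair it was -0.81 (adjusted p = 0.2525) and no longer passed, nor did it with the 100000 strongest (-0.47) or the deposited peaks (-0.77). The region 4.58 kb below the gene (chr9:5886059-5886558) was lost in 92-1. Its DMSO ranks were 9698, 44489 and 18829, and FHT-1015 replicate 1 listed a weaker peak at rank 107881. This region was also open outside the melanoma lines: 22RV1, DU4475, HCT116 and MV411 called it in all 3 DMSO samples and in 2 or 3 FHT-1015 samples.

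In A375, MLANA held 4, 2 and 4 peaks with DMSO and 1, 1 and 1 with FHT-1015, again without overlap. The arms overlapped among strict peaks (4, 2 and 1 against 0, 1 and 0) and among deposited peaks (8, 19 and 14 against 10, 13 and 9). No member was called in A375 on either. Among the 50000 strongest, the log2 difference of -1.08 (SE 0.35) did not pass over all genes (adjusted p = 0.07314). It passed when the shallow pair of 92-1 left the shared estimate of spread (adjusted p = 0.02433). In 22RV1 the numbers were 3, 5 and 4 against 2, 2 and 1, also without overlap (-0.91, SE 0.35, adjusted p = 0.2446), where 0.119% of all genes were called lower. MV411 held 4 peaks in each of its 6 samples. The mean difference of the 5 other lines was -0.32 (SE 0.16, adjusted p = 0.2398).

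PMEL, on chromosome 12 (55954105 to 55966709), lies among other genes, with an end of DGKA 0.082 kb and an end of CDK2 0.121 kb from its own ends. Peaks at its ends can therefore not be assigned to PMEL. In A375 the locus held 9, 9 and 10 peaks with DMSO and 16, 14 and 15 with FHT-1015, without overlap (log2 difference 0.63, SE 0.21, adjusted p = 0.08594). With summits within 1 kb of the ends of other genes left out, the numbers were 2, 3 and 1 against 3, 2 and 1. The added peaks thus lay within 1 kb of ends of other genes, which here includes the ends of PMEL itself. The share of the 50000 strongest peaks within 1 kb of any gene end was also higher with FHT-1015 in A375, at 38.4%, 38.9% and 37.9% in DMSO samples and 48.0% or more in FHT-1015 samples. Its part in the result was not tested. 2 regions of the locus were gained, meaning 0 of 3 DMSO and 3 of 3 FHT-1015 samples. One lies 0.394 kb from an end of RAB5B (chr12:55996039-55996538, FHT-1015 ranks 27884, 3922 and 5597), and the other 0.105 kb from an end of IKZF4 (chr12:56007149-56007648, ranks 20935, 22175 and 39465). DMSO samples already listed weaker peaks at both, at ranks 96460 and 52815 in replicates 1 and 3 for the first and 80260, 62171 and 50482 for the second, so these peaks crossed into the 50000. In 92-1 the locus held 9, 8 and 5 peaks with DMSO and 7, 3 and 6 with FHT-1015 (-0.42, SE 0.21, adjusted p = 0.1106), and without the shallow pair the difference was -0.03 (adjusted p = 0.9651).

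SLC45A2, on chromosome 5 (33944623 to 33984693), held 6, 5 and 4 peaks with DMSO and 6, 1 and 0 with FHT-1015 in 92-1. The log2 difference was -1.30 (SE 0.38, limma adjusted p = 0.00736). The values 1 and 0 were those of the shallow samples, and the deeper FHT-1015 replicate held as many peaks as the highest DMSO sample. Without the pair the difference was 0.24 (adjusted p = 0.7427). The call was also lost with the 20000 (-0.39) or 100000 strongest peaks (-0.17), with the deposited lists (-0.60), without summits near other genes (-0.75) and without FHT-1015 replicate 3 (-0.67). At the upper end of the gene, 0.059 kb from it (chr5:33984502-33985001, singled out after its values were seen), 92-1 called a region in all 3 DMSO samples (ranks 14396, 22030 and 19756) and in FHT-1015 replicate 1 (34561). No peak of A375 overlapped it. A375 held 4, 3 and 3 peaks with DMSO and 5, 3 and 3 with FHT-1015 (0.09, SE 0.38, adjusted p = 0.9354).

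OCA2, on chromosome 15 (27719008 to 28099315) and the longest of the 8 genes at 380.3 kb, held more peaks with FHT-1015 in 92-1. The numbers were 5, 7 and 5 with DMSO and 11, 11 and 22 with FHT-1015, without overlap (log2 difference 1.18, SE 0.29, limma adjusted p = 0.001802). The difference from the mean of the 5 other lines was 0.89 (SE 0.32, adjusted p = 0.03138). Strict peaks numbered 10, 0 and 0 with DMSO and 1, 0 and 0 with FHT-1015, and over these the difference was -0.82 (adjusted p = 0.167). Over the deposited lists it was -0.91 (adjusted p = 0.02254), a call in the opposite direction, where 5358 genes were called lower and 0 higher. With the 20000 strongest peaks it was -0.20, and without the shallow pair 0.86 (adjusted p = 0.1276). In A375 the numbers were 5, 4 and 6 with DMSO and 5, 5 and 5 with FHT-1015 (0.01, SE 0.29, adjusted p = 1). A region inside the gene, 255 kb from its start (chr15:27843894-27844393), was called in all 6 samples of A375 at ranks of 1893 to 7034, with no listed peak in 92-1 and 1 call among the 30 samples of the other lines, in 22RV1 with FHT-1015. FHT-1015 left this call in place, at ranks 5751, 2406 and 3918 against 3272, 7034 and 1893 with DMSO, which overlap.

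TRPM1, on chromosome 15 (31001065 to 31161160), held 8, 7 and 6 peaks in DMSO samples of A375 and 2, 5 and 4 in those of 92-1. A375 stood above the mean of the 5 other lines (log2 difference 0.89, SE 0.24, adjusted p = 0.005881) and 92-1 below A375 (-0.83, SE 0.32, adjusted p = 0.03123), where 33.8% of all genes were called lower. FHT-1015 did not change the number in A375 by the test (9, 5 and 6 peaks, -0.09, SE 0.32, adjusted p = 0.9162), but single regions exchanged calls. 2 were lost: one 16.3 kb below the gene (chr15:30984528-30985027, DMSO ranks 30825, 48394 and 39575) and one inside it, 10 kb from a start (chr15:31091448-31091947, ranks 46737, 45475 and 17460). FHT-1015 replicates 2 and 3 still listed the first at ranks 69395 and 63206, and replicate 3 the second at rank 97524. One region, 27.7 kb from a start (chr15:31129178-31129677), was gained at FHT-1015 ranks 28824, 31580 and 23446, with DMSO peaks listed at 59706 and 88170 in replicates 1 and 2. It was also called in 2 of 3 DMSO samples of 22RV1 and of DU4475. Peak numbers over the locus were lower without overlap in MV411, 3, 4 and 3 with DMSO against 2, 2 and 2 with FHT-1015 (-0.52, adjusted p = 0.3745). They were higher without overlap in HCT116, 2, 3 and 3 against 7, 4 and 4 (0.69, adjusted p = 0.6708). Neither difference was called. In 92-1 the numbers with FHT-1015 were 3, 12 and 7, the 2 higher ones in the shallow samples (0.74, SE 0.32, adjusted p = 0.0598). Without these the difference was -0.16 (adjusted p = 0.8274), and over the deposited lists it was -0.86 (adjusted p = 0.03489).

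**Figure D2:**
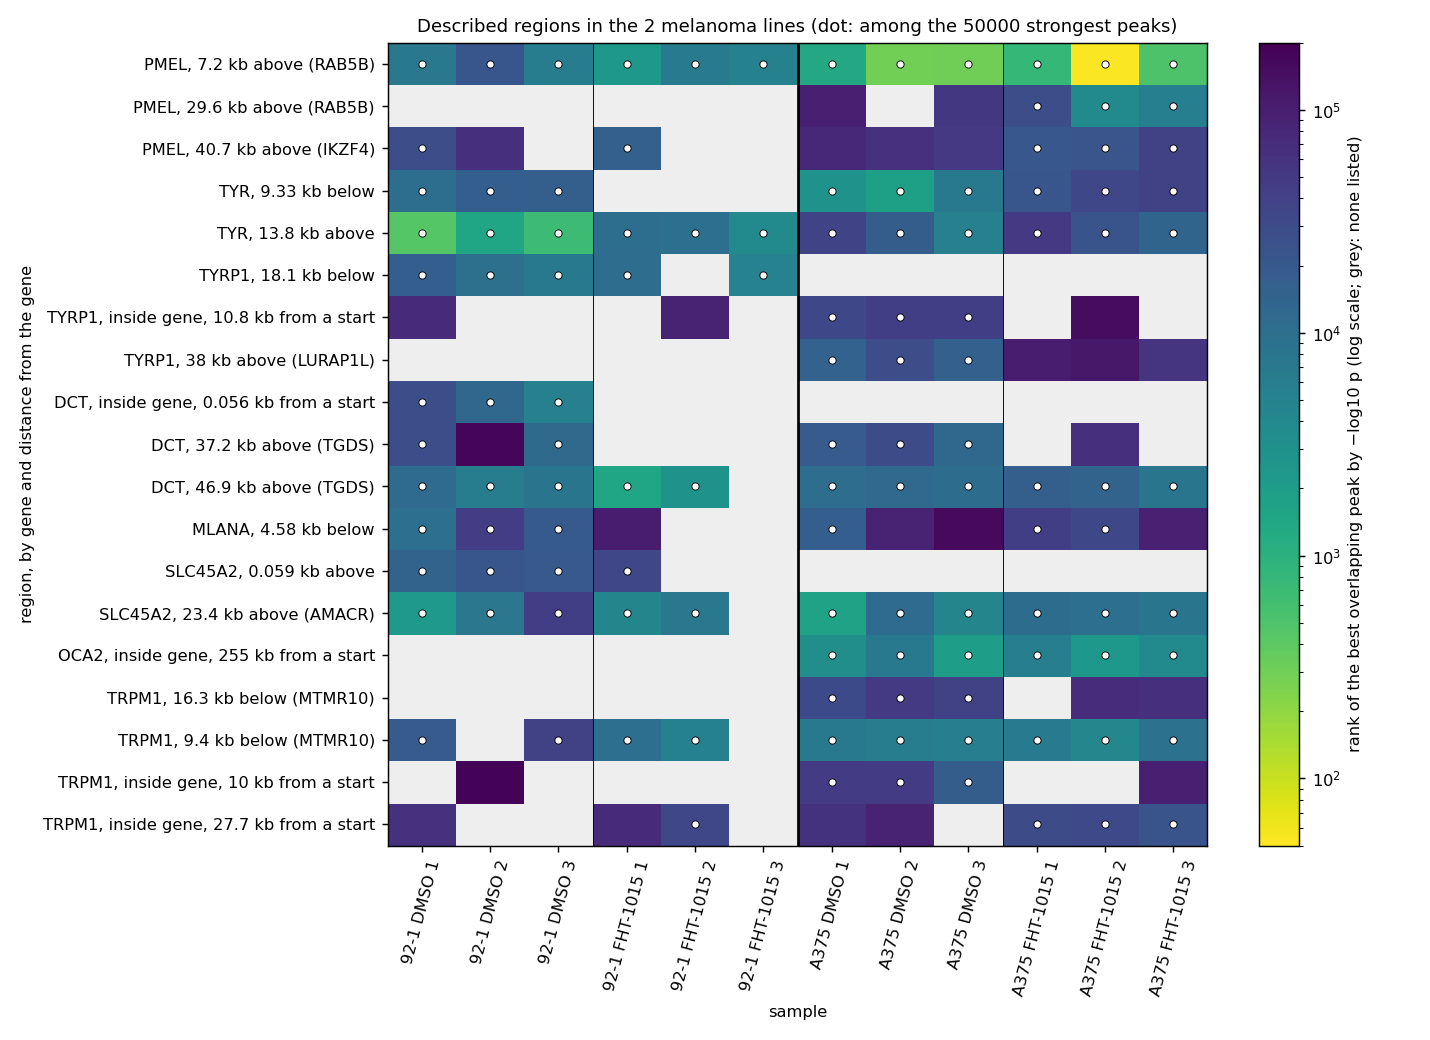
Rank by −log10 p (colour, log scale, rank 1 strongest) of the best peak overlapping each described region (rows, by gene and distance, with the nearest other gene in brackets) in the 12 melanoma samples (columns), with dots for peaks among the 50000 strongest and grey where no peak is listed. The region 9.33 kb below TYR and the region at the internal DCT start have dots in all 3 DMSO samples and grey in all 3 FHT-1015 samples of 92-1.

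**Figure D3:**
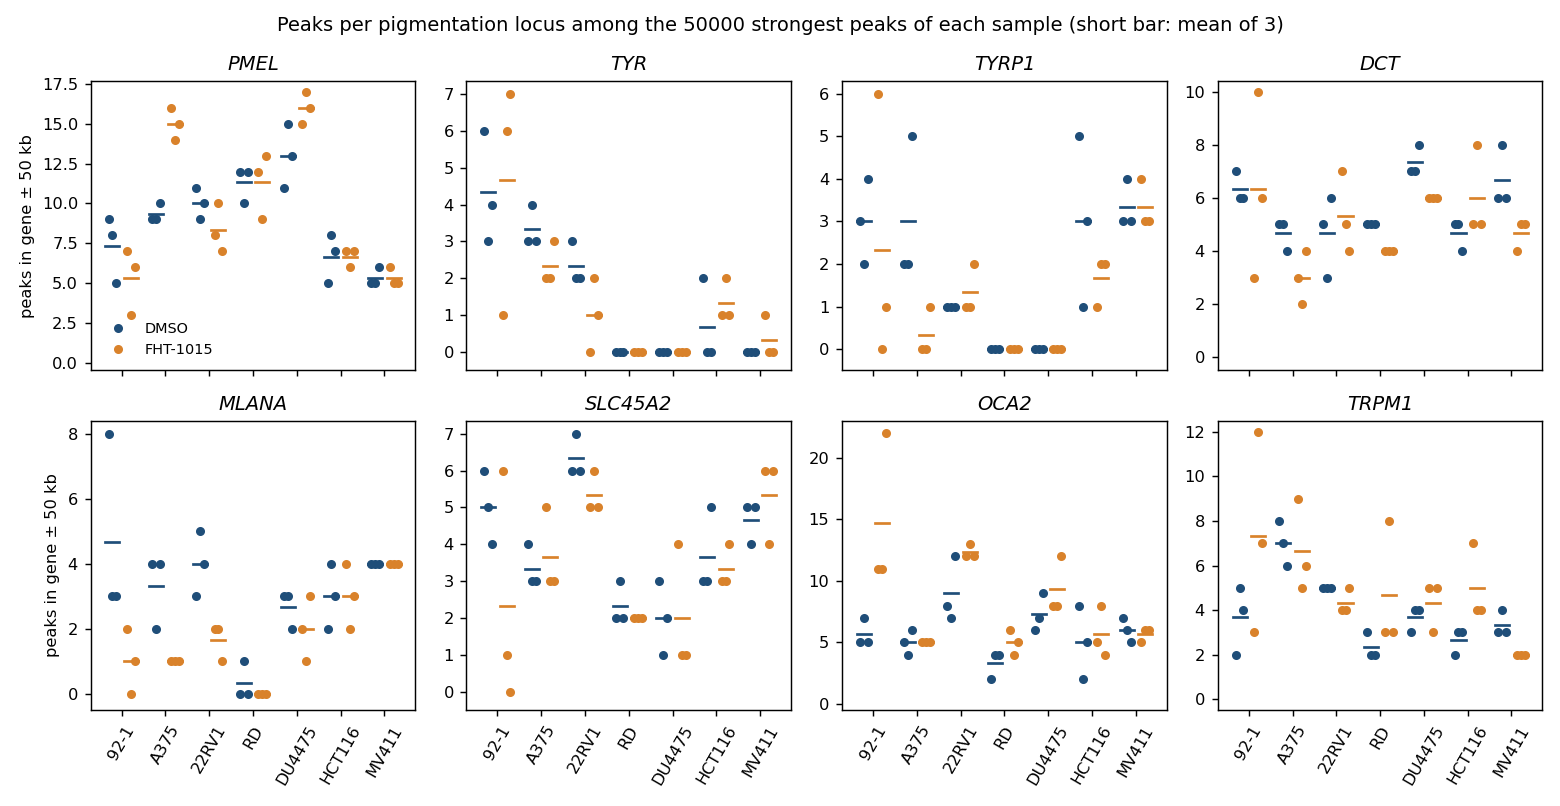
Peaks within each gene and 50 kb on both sides among the 50000 strongest of each sample, by line, with DMSO in blue and FHT-1015 in orange, a point per sample and a bar at the mean of 3. The FHT-1015 samples of A375 lie below its DMSO samples at TYRP1 and MLANA and above them at PMEL, and those of 92-1 lie below at MLANA and above at OCA2.

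Over the 8 loci, the numbers in the melanoma lines changed at few members and in both directions. In 92-1, MLANA and SLC45A2 were called lower and OCA2 higher, where 22.1% of all genes were called lower and 16.6% higher. The median log2 difference over the 8 was -0.27, against -0.03 over all genes tested. The count was 6 without FHT-1015 replicate 1, the deepest of its group, and 0 without the shallow pair, when 1.74% of genes were called lower and 9.03% higher. In A375 the median over the members was -0.24, against 0.2 over all genes. Without the shallow pair of 92-1 in the fit, TYRP1 and MLANA were called lower and PMEL higher in A375, against 2.11% and 8.09% of genes. The count in A375 was 0 without DMSO replicate 1, DMSO replicate 3, FHT-1015 replicate 1 or FHT-1015 replicate 2, and 3 without FHT-1015 replicate 1 or 2 of 92-1.

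In the mean of the 5 other lines, limma called 0 of 8 members, with 1 higher and 0 lower at an unadjusted p under 0.05, where 0.828% of genes were called lower and 4.47% higher. The median over the members was -0.02. The difference between the effect in 92-1 and that mean passed for MLANA (-1.21), SLC45A2 (-1.23) and OCA2 (0.89), where 19.6% of genes were called lower and 9.72% higher. That count of 3 was 0 without DMSO replicate 1, 1 without FHT-1015 replicate 2 or 3, 6 without FHT-1015 replicate 1 and 0 without the pair. The corresponding difference for A375 was called at 0 of 8 members, with 1 lower and 1 higher at an unadjusted p under 0.05, and at 0.281% and 0.135% of genes. It was called at 1 member, TYRP1, without the shallow pair (adjusted p = 0.02156), and the count was also 1 without FHT-1015 replicate 1 of 92-1. TYRP1 came nearest in A375, at -1.53 (SE 0.46, adjusted p = 0.14).

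**Figure D4:**
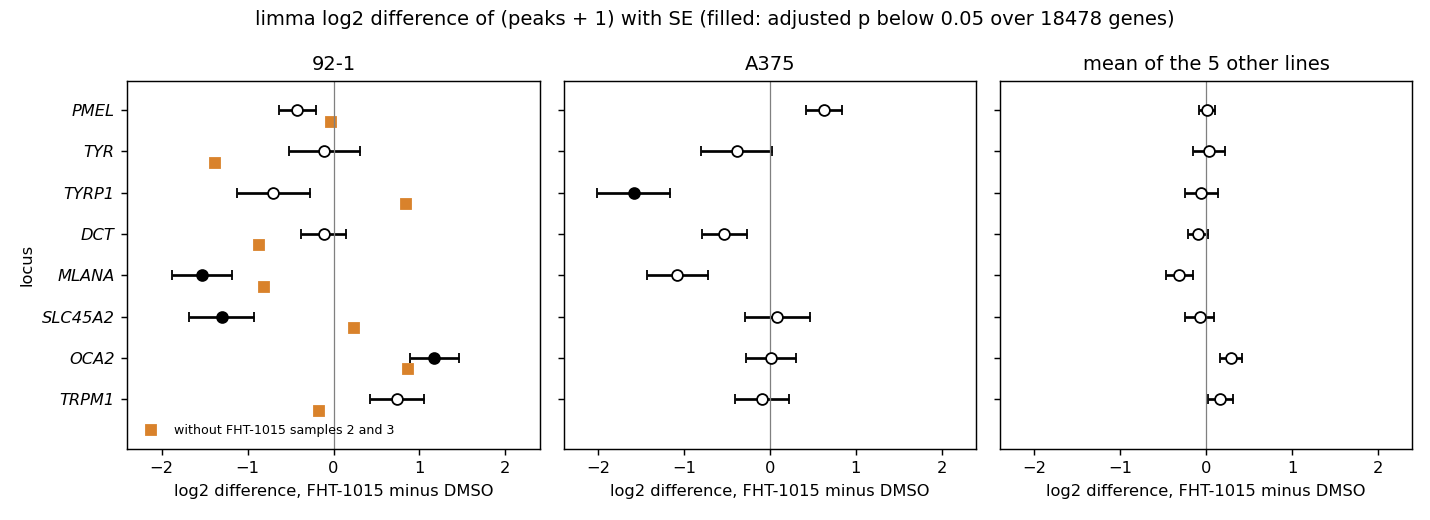
log2 difference in (peaks + 1) between FHT-1015 and DMSO, with its SE from limma, for each locus in 92-1, A375 and the mean of the 5 other lines, filled where the adjusted p over all genes is below 0.05. Orange squares give 92-1 without its 2 shallow FHT-1015 samples, where SLC45A2 moves from -1.30 to 0.24 and TYR from -0.11 to -1.38.

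With DMSO, the members called higher than in the mean of the 5 other lines were TYR and TYRP1 in 92-1, and TYR, TYRP1 and TRPM1 in A375. Of all genes, 6.85% were called higher and 34.9% lower in 92-1, and 13.3% higher and 12.7% lower in A375. The medians over the 8 were 0.29 in 92-1, where the median of all genes was -0.35, and 0.2 in A375, where it was 0.05. With the 20000 strongest peaks, 92-1 had 0 members called higher and 2 lower, PMEL and OCA2, and too few peaks were left at TYR to test it. Between the 2 melanoma lines, TRPM1 was called lower in 92-1 and 0 members higher, against 9.16% of genes called higher. The count in 92-1 was 1 without its DMSO replicate 1, that in A375 was 1 without its DMSO replicate 1, and the call of TRPM1 between the lines was lost without DMSO replicate 1 of 92-1 or DMSO replicate 1 or 2 of A375.

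Counting regions, all 3 DMSO samples of 92-1 called 14 in the loci. A region counts as lost when no FHT-1015 sample called it among its 50000 strongest peaks. With FHT-1015, 3 of the 14 were lost, against 34.8% of all such regions in that line. These were the regions 9.33 kb below TYR, at the internal DCT start and 4.58 kb below MLANA. The members' share of 21.4% lay below the background. All 3 were also missing from the 50000 strongest of the deeper FHT-1015 replicate 1 alone, as were 40.6% of all such regions. The count was 9 without FHT-1015 replicate 1, where the background was 63.0%, and 5 and 6 without DMSO replicates 2 and 3. 2 regions of the loci were called in all 3 FHT-1015 samples and 0 of them was gained, against 2.36% of all. Without FHT-1015 replicate 1, 6 of 8 were gained, against 46.2%.

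In A375, 5 of 23 regions in the loci were lost, or 21.7% against 10.1% of all regions, and 3 of 21 were gained, or 14.3% against 3.14%. All 5 lost regions lay over 1 kb from any gene end, where 11 regions were called and 18.1% of all were lost. They were the 2 at TYRP1, 1 at DCT and 2 at TRPM1. Each of the 5 still had a weaker peak in the deposited list of at least 1 FHT-1015 sample. Of the 3 gained regions, 2 lay within 1 kb of the ends of neighbours of PMEL and 1 inside TRPM1. With 3 samples against 3, an exact test of a single region cannot go below p = 0.1, so these are counts and no tests. Among the other lines, the lost regions of the loci were 8 of 28 in 22RV1 (all regions 19.0%), 5 of 26 in MV411 (14.5%), 1 of 17 in RD (9.78%), 0 of 27 in DU4475 (3.93%) and 0 of 10 in HCT116 (5.68%). The share in A375 stood between those of 22RV1 and MV411, at 28.6% and 19.2%. Gained regions in the loci were 3 of 24 in MV411 (all regions 8.73%) and 0 in 22RV1 (2.16%), RD (0.821%), DU4475 (0.883%) and HCT116 (2.05%).

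**Figure D5:**
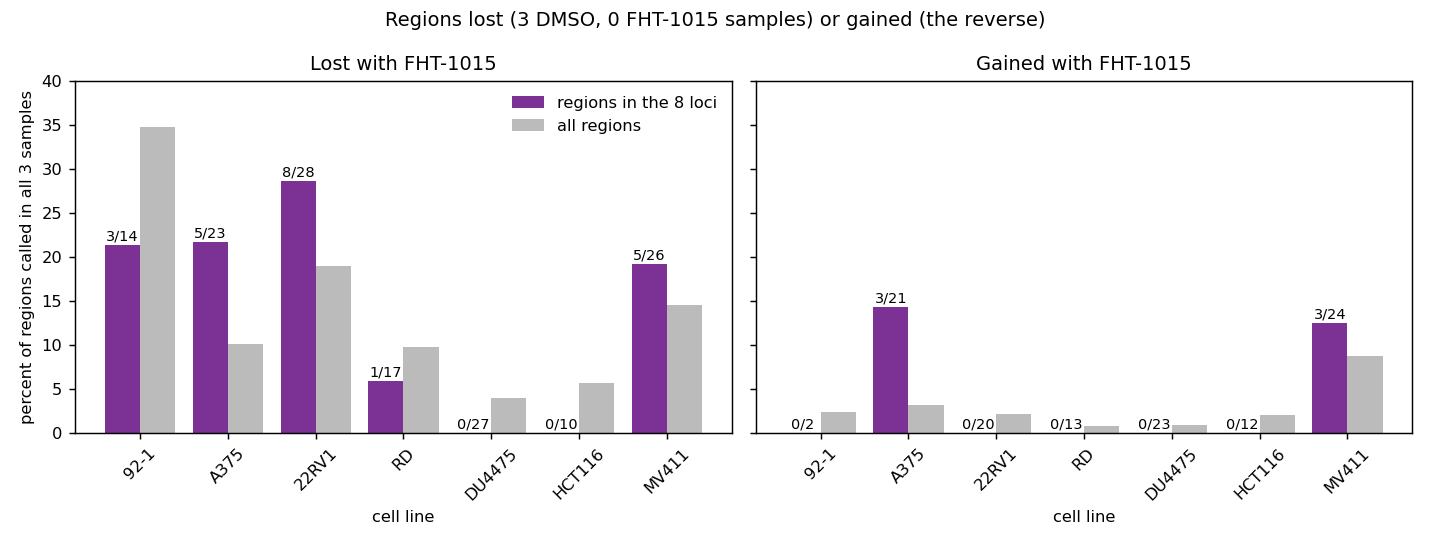
Percent lost (left) among regions with calls in every DMSO sample and gained (right) among regions with calls in every FHT-1015 sample, for the 8 loci (purple, with counts) and for all regions (grey), by line. The purple bar for losses lies below the grey one in 92-1 (21.4% and 34.8%) and above it in A375 (21.7% and 10.1%).

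The regions of the loci open in DMSO were in part specific to the melanoma lines. Of the 14 called in all 3 DMSO samples of 92-1, 7 were called in 0 of the 15 DMSO samples of the other lines, against 33.8% of all such regions of 92-1. Of the 23 in A375, 8 were, against 20.4%. Among the regions without a call elsewhere, 2 of the 7 in 92-1 were lost with FHT-1015 (28.6%, against 66.6% of all such regions of the line). In A375, 4 of the 8 were lost (50%, against 28.6%). The share in the loci thus lay below that of all regions in 92-1 and above it in A375, as descriptions of small numbers.

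Other genes of the pathway were counted in 3 lists. In 92-1 the numbers fell at 6 and rose at 1 of 24 genes of melanosome formation and transport, fell at 3 and rose at 2 of 14 genes of melanocyte signalling, and fell at 5 and rose at 2 of 10 transcription factors. The shares that fell were 25.0%, 21.4% and 50%, against 22.1% of all genes, and those that rose 4.17%, 14.3% and 20.0%, against 16.6%. The shares that fell in the first 2 lists were thus near that of all genes. Medians were -0.17, -0.32 and -0.75, against -0.03 over all genes. Among the strongest were TFAP2A, a factor of the neural crest (-1.74, adjusted p = 1.845e-05), GNAQ, the G protein subunit often mutated in uveal melanoma (-2.07, adjusted p = 4.884e-05), its effector PLCB4 (-1.61, adjusted p = 0.0006561), MYRIP, which links melanosomes to myosin (-1.26, adjusted p = 0.0002766), the melanosomal glycoprotein GPNMB (-1.43, adjusted p = 0.002029), and MITF itself (-1.64, adjusted p = 0.00614). DTNBP1 (-1.69), HPS3 (-1.0) and RRAGD (-1.33) also fell, and SOX9 rose (1.18). Without the shallow pair, 1, 0 and 0 genes of the lists were called lower and 2, 0 and 1 higher, where 1.74% and 9.03% of all genes were. SOX9 was the 1 of these that was also called with all samples, the others being CAPN3 (lower), HPS4 and GPR143. The calls of the other genes named were lost, with DTNBP1 at 0.04, RRAGD at 0.01, PLCB4 at -0.26, GNAQ at -0.68 (adjusted p = 0.231), TFAP2A at -0.73 (0.1023) and MITF at 0.42 (0.5962). SOX9 then stayed higher at 1.61 (adjusted p = 0.0222). In A375 the lists held 1 call, SOX9, which fell (-1.33, adjusted p = 0.01868), opposite in sign to 92-1. SOX9 also fell in the mean of the 5 other lines (-0.56, adjusted p = 0.02375). Without the shallow pair of 92-1 in the fit, MYRIP (-0.67, adjusted p = 0.02879) and PLCB4 (-0.80, adjusted p = 0.04996) were called lower in A375 too. In DMSO, the lists differed from the 5 other lines in both directions. In 92-1, 7, 3 and 3 genes of the 3 lists were lower and 6, 1 and 4 higher, and in A375 2, 3 and 3 were lower and 5, 1 and 3 higher. The melanocortin receptor MC1R was among those lower in 92-1 (-0.52, adjusted p = 0.03575). EDNRB, the endothelin receptor of melanocytes, was higher than in the other lines in both 92-1 (2.93) and A375 (2.54), as was SLC24A5, a melanosomal cation exchanger (1.49 and 1.79). MITF (0.90 and 1.52) and SOX5 (1.05 and 1.89) were also higher in both. LEF1 (-1.06 and -0.87), SOX9 (-0.89 and -0.75) and TFEB (-0.66 and -0.74) were lower in both. PAX3 was called higher only in 92-1 (1.26) and SOX10 only in A375 (1.595). HPS1 and BLOC1S6 were lower in 92-1 and higher in A375, and SLC24A4 the reverse.

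The 5 genes whose peak numbers over the 14 group means were most like the mean of the 8 members, outside their windows, were TRAT1 (Pearson r = 0.92), RORA (0.916), CNTN1 (0.886), RYR2 (0.873) and FAM181B (0.872). These are descriptions over groups that share their lists and depth.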

How the data were processed

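The files are 42 narrowPeak lists, 1 per sample, with hg38 coordinates. Per the submitters' processing notes, Bowtie2, Picard, MACS2, limma and HOMER were used. Versions and settings were not given in the sources used here. For each peak the authors deposited its fold enrichment over background, a ratio, and the −log10 p and −log10 q of the peak caller. The lists hold no read counts, so depth is known only through the pileup and background that solve the deposited fold and −log10 p as MACS2 defines them. Of the peaks tried, 99.98% to 100% gave a whole pileup within 0.01.

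Summits on chromosomes 1 to 22 and X were counted per gene and 50 kb on both sides among the 50000 peaks of highest −log10 p. The counts of the 18478 genes with a mean of at least 1 were tested as log2(peaks + 1) with limma 3.58.1 (R 4.3.3, trend on), with 14 group means over all 42 samples, contrasts and Benjamini-Hochberg adjustment at 0.05. On this scale the change of loci with few peaks is understated. All groups share 1 spread per gene, while sample quality weights ran from 0.076 to 0.658 in 92-1 and up to 2.142 in DU4475. The p-values in 92-1 may therefore be too small. Per the labels the replicates are biological. Regions, calls, losses and gains were computed with Python 3.11.15 and pandas 2.3.3. On simulated data for the A375 comparison over 18451 genes, 26 of 100 planted 0.25-fold and 1 of 100 planted 0.5-fold changes were called, with 1 false call. Each planted gene had a higher mean over the A375 samples than TYR, TYRP1, DCT, MLANA or SLC45A2, so these rates do not apply to those members. The simulation held no differences in depth between samples of a line.

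The members and gene lists were chosen with earlier results of these data known. All members were described, and all 8 passed the filter. Regions were named as the one most called in melanoma DMSO samples per gene and those lost or gained. Listed genes were named where they passed, at most 10 per contrast by smallest p. The listed genes named for DMSO do not follow that rule. 2 further regions were chosen after their values were seen. Leaving out FHT-1015 replicates 2 and 3 of 92-1 together was chosen after seeing the data, as was doing so with strict peaks. The other alternatives changed the peaks kept, the window, the pseudocount, the filter, sample weights, reference lines, overlap, the block or the replicates.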

Additional observations from a re-analysis of the deposited data

Results flagged for a closer look

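3 loci were set apart by a test of the difference between lines: the effect of FHT-1015 in 92-1 minus the mean effect in the 5 other lines. The log2 difference was -1.21 for MLANA (limma adjusted p = 0.0175), -1.23 for SLC45A2 (adjusted p = 0.02585) and 0.89 for OCA2 (adjusted p = 0.03138). Without the 2 shallow FHT-1015 samples of 92-1 they were -0.49 (adjusted p = 0.6097), 0.31 (adjusted p = 0.7252) and 0.58 (adjusted p = 0.4349). Groups of 3 samples were not examined for single outlying samples.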

How the results depend on the processing

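Sample quality weights were lowest for FHT-1015 replicate 1 of 92-1 (0.076), against 0.658 and 0.225 for the shallow replicates 2 and 3. The weighted result in 92-1 thus rests mostly on the shallow pair. Counts are of the 8 members called by limma, beside the reported count. For FHT-1015 against DMSO in 92-1 (3) they were 1 with the 20000 or 100000 strongest peaks, 5 with strict peaks or sample quality weights, and 0 without the shallow pair on all or strict peaks. In A375 (1) they were 0 with 20000, 100000, strict or deposited peaks, with ranking by fold, with windows of 10 or 100 kb and with strict peaks without the pair, and 3 with weights or without the pair. In the mean of the 5 other lines (0) they were 3 with strict peaks and 4 with strict peaks without the pair. For the effect in 92-1 minus that mean (3) they were 0 with 20000, strict or deposited peaks and without the pair on all or strict peaks, and 1 with 100000 peaks, with ranking by fold and without MV411. For A375 minus that mean (0) they were 2 with weights and 1 without the pair. In DMSO, 92-1 minus the 5 lines (2, both higher) gave 2 lower with 20000 peaks, 2 lower and 1 higher with strict peaks on all samples or without the pair, 5 higher with deposited lists, 1 higher with windows of 10 or 100 kb and with reference lines of the same kind, 4 higher without summits near other genes, and 4 (3 higher) without MV411. A375 minus the 5 lines (3, all higher) gave 0 with 20000 peaks and with strict peaks on all samples or without the pair, 1 higher with deposited lists and 1 lower with windows of 10 kb. 92-1 minus A375 (1, lower) gave 2 lower with 20000 peaks, windows of 100 kb and strict peaks without the pair, 2 higher with windows of 10 kb and summits near other genes removed, 1 higher with deposited lists, and 0 with ranking by fold. Leaving out 1 replicate gave ranges of 2 to 6, 0 to 3, 0 to 0, 0 to 6, 0 to 1, 1 to 3, 1 to 3 and 0 to 1 in the same order.

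Lost regions in 92-1 (3) were 1 with an overlap of 250 bp, with 20000 peaks and with strict peaks, 10 with deposited lists and 3 to 9 with 1 replicate left out. Gained regions in 92-1 (0) were 3 with deposited lists, 16 without the pair and 0 to 6. Lost regions in A375 (5) were 1 with 20000 peaks, 3 with strict peaks and 5 to 7. Gained regions in A375 (3) were 0 with 20000, 100000 or deposited peaks, 1 with strict peaks and 3 to 4.

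Of 13 calls over 64 pairs of gene and comparison, 252 of 344 values under alternatives kept the call, and 22 values changed sign where the reported or the alternative value was called. With FHT-1015 in 92-1, SLC45A2 was 0.24 without the pair, OCA2 was -0.20 with 20000 peaks, -0.82 with strict peaks, -0.91 with deposited lists and -0.15 with strict peaks without the pair, and TRPM1 was -0.86 with deposited lists. TYRP1 in A375 was 0.011 with windows of 100 kb. TRPM1 in the mean of the 5 lines was -0.72 with strict peaks on all samples and without the pair. For 92-1 minus that mean, SLC45A2 was 0.31 without the pair and 0.41 with strict peaks without it, and OCA2 was -0.29 with 20000 peaks, -0.35 with strict peaks and -0.92 with deposited lists. In DMSO, 92-1 minus the 5 lines gave 0.88 for PMEL without summits near other genes and 0.72 for OCA2 with deposited lists, and A375 minus the 5 lines gave -0.028 for TRPM1 with 20000 peaks. 92-1 minus A375 gave -0.71 for MLANA with windows of 100 kb, -1.06 for OCA2 with 20000 peaks and -1.29 with strict peaks on all samples or without the pair, and 0.25 for TRPM1 with deposited lists. The cause was not tested. TYR in DMSO kept its call in 24 of 24 alternatives for 92-1 and 22 of 24 for A375. It was not tested with 20000 peaks, strict peaks or windows of 10 kb, where it fell below the filter. The 24 of 24, 22 of 24 and 252 of 344 include alternatives that leave out samples outside the groups compared. Those cannot move the difference and change only the shared spread.

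The replicate numbers share no stated culture, and in 1 of 21 same-numbered pairs the deviations correlated above 0.1 (range -0.043 to 0.127), so they were not taken as pairs. With the replicate block, 4, 1, 0, 2, 0, 2, 3 and 1 members were called in the 8 comparisons. A DMSO sample correlated best with its own number in 8 of 21 cases. Depth limits 92-1 most: the shallow samples hold 2037 and 1412 strict peaks, and the pileups of their called peaks at the described starts and regions were 2 to 5 reads.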

Other observations

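Outside the melanoma lines, the loci held regions that were lost or gained as well. 22RV1 called 2 regions at TYR in all 3 DMSO samples and both were lost, as were 2 of 4 at SLC45A2. In MV411, 3 of 5 regions at DCT were lost and 1 was gained, and 2 were gained at SLC45A2. DU4475 and HCT116 lost 0 of their 27 and 10 regions in the loci. In these lines too, an exact test of a single region cannot go below p = 0.1.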
